A study of Mus musculus with 8 samples.

Results

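The 10 genes described here are markers and working parts of the macrophages that reside in bone marrow: Adgre1, C1qa, C1qb, C1qc, Mrc1, Vcam1, Cd163, Spic, Cd68 and Mertk. They were chosen by name, every probe set annotated to one of them was taken, and 15 probe sets of the 45037 tested, for 10 of the 18193 genes measured, made up the set. FACS had collected bone marrow cells carrying Cd11b, the integrin alpha M subunit of granulocytes, monocytes and many macrophages, from mice of FVB and C57BL6 mixed strain at 8 weeks of age. Both groups lacked E2f1 (E2F1-/-) and carried floxed E2f3 alleles (3f/f). Both were also given 250 µg of the interferon inducer pIpC 5 times, on alternate days, and killed 24 h after the last dose. In the 4 controls E2f2 was wild type (2+/+) and no transgene was listed. In the 4 experimental samples E2f2 was deleted (2-/-) and Mxcre, a Cre gene under an interferon-responsive promoter, was present. Effects of Cre and of the E2f genotype cannot be told apart, because only the experimental samples carry Mxcre. Since the labels do not say whether each sample is a separate animal, the p-values reflect sample-to-sample spread that may be technical in part. Sex read from the arrays differed within each group, as given below, so the samples of a group do not all come from the same animal.

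Resident marrow macrophages sit at the centre of islands of maturing erythroblasts, take up the nuclei that these expel, clear dying leukocytes and return iron from hemoglobin. They are recognised by surface Adgre1, Vcam1 and scavenger receptors, make the complement component C1q themselves, and in the iron-recycling type depend on the transcription factor Spi-C. Many of them carry less Cd11b than monocytes and neutrophils do, so a Cd11b sort holds them beside a large majority of other myeloid cells. In RNA from such a mixture, fewer cells of a type and less RNA per cell cannot be told apart.

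The values are log2 values from RMA, and array medians lay between 5.01 and 5.04. The sort marker Itgam read 11.58 ± 0.07 (SD, n = 4) in controls and 11.54 ± 0.27 (SD, n = 4) in the experimental group, and the neutrophil genes S100a9 (14.49 ± 0.04 and 14.43 ± 0.08) and Camp (14.46 ± 0.02 and 14.33 ± 0.06) were near the top of the scale, which ended at 14.36 to 14.54 in the 8 arrays. The sample codes in the labels have a digit first for replicates 1 and 2 of both groups and a letter first for replicates 3 and 4. Arrays of the 2 code styles stood apart over all probe sets (correlations of deviations from the group mean between the groups of -0.27 to -0.13 across styles and 0.14 to 0.26 within a style). The comparison of experimental with control samples is therefore given over all 8 arrays and within each of these subsets. E2f2 read lower in the experimental samples, by -0.55 ± 0.16 (SE) at its brighter probe set (adjusted p = 0.107) and -0.66 ± 0.13 at the other (adjusted p = 0.0351), while the floxed E2f3 did not read lower (0.29 ± 0.11, adjusted p = 0.201, and 0.11 ± 0.11, 0.657) and the 3 probe sets of E2f1, null in both groups, differed by 0.24 to 0.58 (adjusted p = 0.236 to 0.345). Whether any of these probe sets lie in the deleted parts was not tested. Sex read from Xist and Eif2s3y was male in control replicates 1 and 3 and experimental replicate 2 and female in the other arrays.

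No marrow macrophage gene passed the test between experimental and control samples. By limma with Benjamini-Hochberg adjustment over all probe sets at adjusted p 0.05, 0 of the 15 probe sets were called, beside 2.58% of all 45037 probe sets (5.06% with the replicate block). Their adjusted p lay between 0.189 for Cd68 and 0.973 for C1qb, and 1 of 15 had an unadjusted p under 0.05, beside 17.0% of all probe sets. The median difference over the 10 genes, each by its brightest probe set, was -0.13, beside 0.01 over all genes. Over the 15 probe sets it was -0.18, with 5 above 0 and 10 below. Without control replicate 1 that median was 0.36 (9 above, 6 below), and with inferred sex as a block 0.03 (9 above, 6 below). Arrays of the same group differed widely in these genes. The pooled within-group SD had a median of 0.79 over the 10 genes and of 0.17 over all genes, and in 9 of the 10 it was above the 90th percentile of all genes. The exception was Cd68, with a pooled SD of 0.20.

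**Figure D1:**
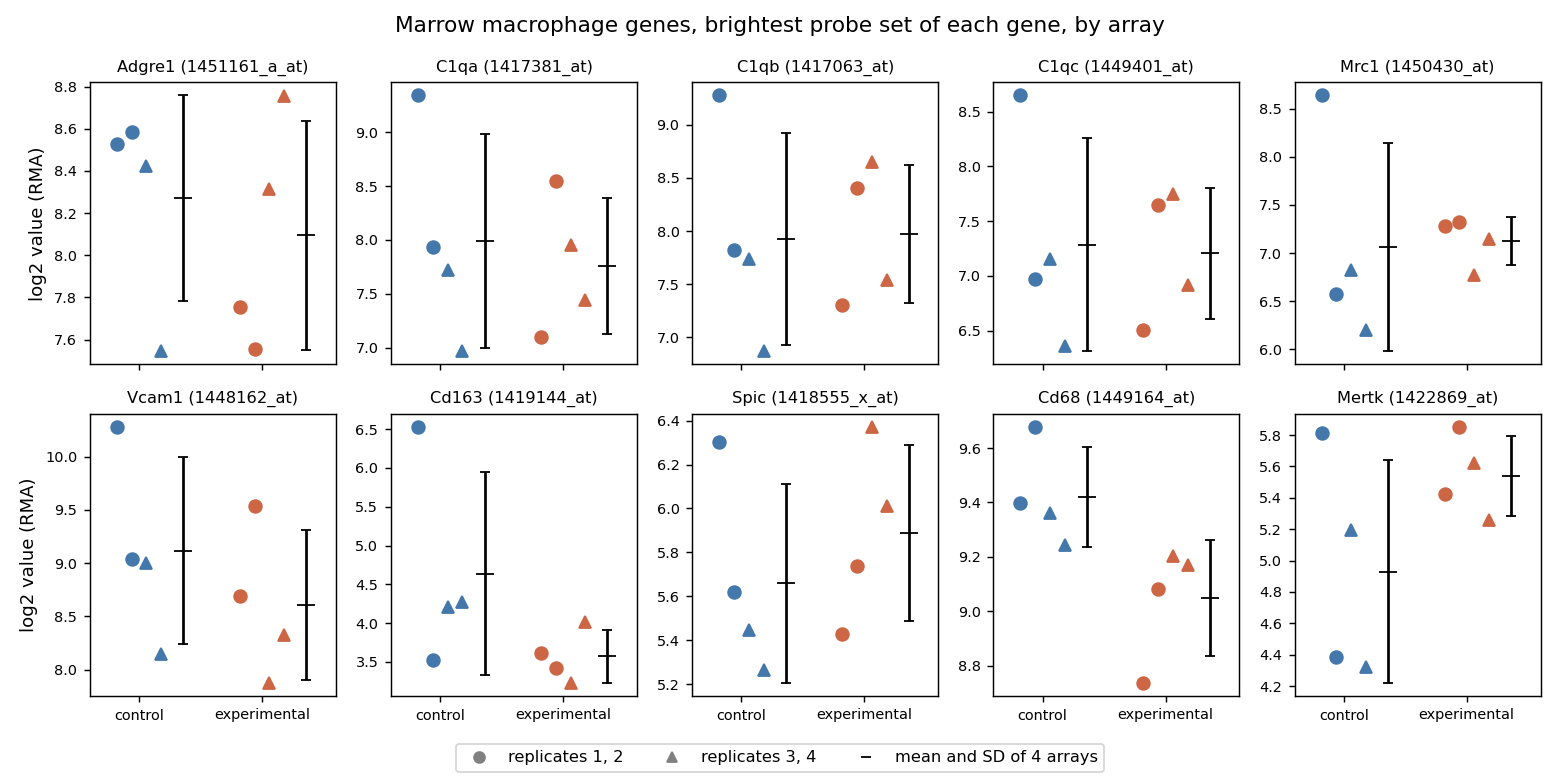
Log2 RMA value of each of the 10 genes at its brightest probe set, in each of 4 control (blue) and 4 experimental (orange) arrays, with circles for replicates 1 and 2 and triangles for replicates 3 and 4. Black bars give the mean and SD of 4 arrays. Each panel has its own vertical axis. Control replicate 1 is the highest array in C1qa, C1qb, C1qc, Mrc1, Vcam1 and Cd163, and only in Cd68 do the groups not overlap.

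Adgre1 encodes the adhesion G protein-coupled receptor most used to mark mouse macrophages, which eosinophils carry as well. It read 8.53, 8.59, 8.43 and 7.54 in control replicates 1 to 4 and 7.76, 7.56, 8.31 and 8.75 in experimental replicates 1 to 4. The 3 high controls lay between the 2 high experimental arrays, and control replicate 4 was as low as the low experimental arrays. The difference was -0.18 ± 0.30 (SE, n = 4 per group, 95% interval -0.84 to 0.49, limma adjusted p = 0.818).

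Vcam1, the vascular cell adhesion molecule by which island macrophages hold erythroblasts through integrin alpha 4 beta 1, is also made by marrow stroma and endothelium. At 1448162_at it read 10.28, 9.03, 9.0 and 8.15 in the controls and 8.69, 9.53, 7.87 and 8.33 in the experimental samples. Control replicate 1 was highest and experimental replicate 3 lowest, and the groups overlapped. The difference was -0.51 ± 0.45 (95% interval -1.51 to 0.49, adjusted p = 0.621), and 1415989_at (-0.53 ± 0.36, adjusted p = 0.508) and 1451314_a_at (-0.39 ± 0.38, adjusted p = 0.662) gave like values. Without control replicate 1 the 3 differences were -0.12 ± 0.38, -0.22 ± 0.31 and -0.02 ± 0.28. The 3 probe sets ranked the arrays alike (Pearson r of 0.96 to 0.97 and Spearman rho of 0.88 to 1.0 between them over 8 arrays, as a description).

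C1qa, C1qb and C1qc encode the A, B and C chains of C1q, which together form the recognition molecule of the classical complement pathway and tag dying cells for uptake. The 3 genes lie side by side on chromosome 4 and their values followed each other through the 8 arrays. C1qa read 9.34, 7.94, 7.72 and 6.97 in control replicates 1 to 4 and 7.10, 8.54, 7.95 and 7.44 in experimental replicates 1 to 4. C1qb at 1417063_at read 9.28, 7.82, 7.73 and 6.87 in the controls and 7.31, 8.40, 8.65 and 7.54 in the experimental samples. C1qc read 8.65, 6.97, 7.16 and 6.36, and 6.5, 7.65, 7.75 and 6.92. In all 3 genes control replicate 1 was the highest array and control replicate 4 the lowest, so the controls alone spanned the whole range of the data. Over 8 arrays, Pearson r was 0.94 between C1qa and C1qb, 0.95 between C1qa and C1qc and 0.98 between C1qb and C1qc (Spearman rho 0.98, 0.95 and 0.98), and without the 2 arrays farthest from the median it was 0.81, 0.84 and 0.97. These are descriptions of genes measured on the same arrays.

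Between the groups, C1qa differed by -0.23 ± 0.47 (SE, 95% interval -1.28 to 0.81, adjusted p = 0.852), C1qb by 0.05 ± 0.48 (-1.01 to 1.11, adjusted p = 0.973) and C1qc by -0.08 ± 0.45 (-1.10 to 0.94, adjusted p = 0.955). The other C1qb probe sets, 1434366_x_at (-0.09 ± 0.44) and 1437726_x_at (-0.24 ± 0.56), did not pass either. The 95% interval of each of the 5 C1q probe sets reached below -1, a 2-fold lower level. Without control replicate 1 the differences were above 0 in all 3 genes, at 0.22 ± 0.35, 0.50 ± 0.36 and 0.38 ± 0.32, and none passed (adjusted p = 0.834, 0.584 and 0.651).

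The promoters of C1qb and C1qc are shown because these genes had the closest pair of profiles. RefSeq promoter sequences of GRCm38.p6, 250 bases before to 50 after the start, matched 7 of the 10 genes (C1qb, C1qc, Mrc1, Cd163, Spic, Cd68 and Mertk). They were searched on both strands for GAGGAA, the purine-rich core bound by ETS factors such as PU.1 and Spi-C, for the E2F-like sequences TTNGCGC and TTNCCGC, for TGANTCA (AP-1), for TGCTGA, the core of MAF recognition elements, and for AGGTCA, the core of sites for nuclear receptors such as LXR. Promoter of C1qb, chr4:136886151-136886450, minus strand, and of C1qc, chr4:136892865-136893164, minus strand, with the ETS core or its reverse complement in capitals:
C1qb: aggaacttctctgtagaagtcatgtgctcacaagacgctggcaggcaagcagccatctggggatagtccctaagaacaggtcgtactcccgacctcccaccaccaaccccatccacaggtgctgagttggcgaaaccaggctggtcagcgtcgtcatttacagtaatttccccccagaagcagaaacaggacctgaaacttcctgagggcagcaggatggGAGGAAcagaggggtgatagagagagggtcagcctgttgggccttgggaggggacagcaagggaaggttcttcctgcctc
C1qc: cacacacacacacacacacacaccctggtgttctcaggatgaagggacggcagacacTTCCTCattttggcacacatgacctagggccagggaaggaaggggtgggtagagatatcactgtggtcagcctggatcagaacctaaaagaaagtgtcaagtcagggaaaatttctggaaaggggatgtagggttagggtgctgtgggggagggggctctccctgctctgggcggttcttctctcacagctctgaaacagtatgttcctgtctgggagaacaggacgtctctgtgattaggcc
The core starts at base -30 in C1qb and its reverse complement at base -193 in C1qc, counted from the transcription start. An ETS core was found in 4 of the 7 (C1qb, C1qc, Cd68 and Mrc1, the last with 3) and in 28.3% of 32851 promoters of this length. TGCTGA was found in C1qb and Spic (19.5% of all promoters) and AGGTCA in C1qc (16.3%).

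Mrc1 (CD206, the mannose receptor), Cd163 (the scavenger receptor for hemoglobin bound to haptoglobin) and Cd68 (macrosialin, a protein of endosomes and lysosomes) are uptake receptors or markers of the endosomal system. Mrc1 read 8.64, 6.58, 6.83 and 6.20 in control replicates 1 to 4 and 7.28, 7.32, 6.77 and 7.15 in experimental replicates 1 to 4. The controls spread widely around closely placed experimental arrays, with an SD of 1.09 against 0.25, and the difference was 0.07 ± 0.44 (95% interval -0.93 to 1.06, adjusted p = 0.960). Without control replicate 1 it was 0.59 ± 0.18 and did not pass (adjusted p = 0.187).

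Cd163 read 6.53 in control replicate 1 and 3.52, 4.21 and 4.27 in control replicates 2 to 4. The experimental samples read 3.61, 3.43, 3.23 and 4.02. Control replicate 1 was thus the only array above the array median of about 5.0, a range where an Affymetrix signal can be largely background, and the files used here hold no detection calls. The difference of -1.06 ± 0.54 (95% interval -2.26 to 0.14, adjusted p = 0.355) became -0.43 ± 0.23 without that array (adjusted p = 0.451).

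Cd68 was the gene with the steadiest values and the only one whose groups did not overlap. It read 9.40, 9.68, 9.36 and 9.24 in the controls and 8.74, 9.08, 9.20 and 9.17 in the experimental samples, so the lowest control stood just above the highest experimental array. The difference was -0.37 ± 0.13 (SE, n = 4 per group, 95% interval -0.67 to -0.07) and did not pass over all probe sets (limma adjusted p = 0.189). The two-sided exact permutation test over samples gave p = 0.0286, the smallest that 4 against 4 samples allow. Non-overlap in this direction was found in 1 of the 15 probe sets and in 6.15% of all probe sets, and in the other direction in 0 and 4.64%. The Cd68 promoter, chr11:69666121-69666420, minus strand, is shown with the ETS core and its reverse complement in capitals:
Cd68: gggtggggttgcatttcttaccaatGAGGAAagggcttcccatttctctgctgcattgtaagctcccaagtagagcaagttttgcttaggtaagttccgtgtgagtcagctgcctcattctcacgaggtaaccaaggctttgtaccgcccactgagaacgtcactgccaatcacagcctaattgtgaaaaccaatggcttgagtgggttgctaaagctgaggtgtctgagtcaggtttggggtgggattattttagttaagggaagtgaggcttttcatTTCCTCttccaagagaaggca
The cores start at bases -225 and 30. Cd68 also held TGAGTCA, a match to the AP-1 pattern, at bases -149 and -24, a pattern found in 1 of the 7 promoters and in 7.81% of all.

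Mertk, a receptor tyrosine kinase through which macrophages engulf dying cells bridged by Gas6 or protein S, read 5.81, 4.39, 5.20 and 4.32 in the controls and 5.43, 5.85, 5.62 and 5.26 in the experimental samples. Of the controls, only replicate 1 lay among the experimental arrays. The difference was 0.61 ± 0.31 (95% interval -0.07 to 1.30, adjusted p = 0.351), the highest of the 15, and 0.91 ± 0.23 without control replicate 1 (adjusted p = 0.119). With inferred sex as a block the adjusted p was 0.0834, the lowest over the alternatives. Mertk is shown as the 1 promoter of the 7 with an E2F-like match, a pattern found in 14.5% of all promoters, at chr2:128698665-128698964, plus strand, matches in capitals:
Mertk: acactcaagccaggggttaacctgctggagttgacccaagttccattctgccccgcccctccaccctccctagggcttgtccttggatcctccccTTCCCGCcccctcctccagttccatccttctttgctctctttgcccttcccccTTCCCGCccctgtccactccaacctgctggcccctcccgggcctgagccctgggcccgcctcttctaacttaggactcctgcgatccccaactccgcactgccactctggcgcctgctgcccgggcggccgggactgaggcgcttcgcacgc
Both matches, starting at bases -155 and -102, read TTCCCGC.

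Spic encodes Spi-C, the ETS transcription factor of iron-recycling macrophages. At 1418555_x_at it read 6.30, 5.62, 5.44 and 5.27 in the controls and 5.43, 5.74, 6.37 and 6.01 in the experimental samples. At 1449134_s_at it read 5.94, 4.66, 3.65 and 3.76, and 4.27, 5.35, 5.67 and 4.31. In both, control replicate 1 and experimental replicate 3 were the 2 highest arrays. The differences of 0.23 ± 0.25 (95% interval -0.33 to 0.79, adjusted p = 0.699) and 0.40 ± 0.51 (-0.74 to 1.54, adjusted p = 0.748) did not pass. Probe sets with the ending _x_at or _s_at, as here and in C1qb, can also read related transcripts.

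**Figure D2:**
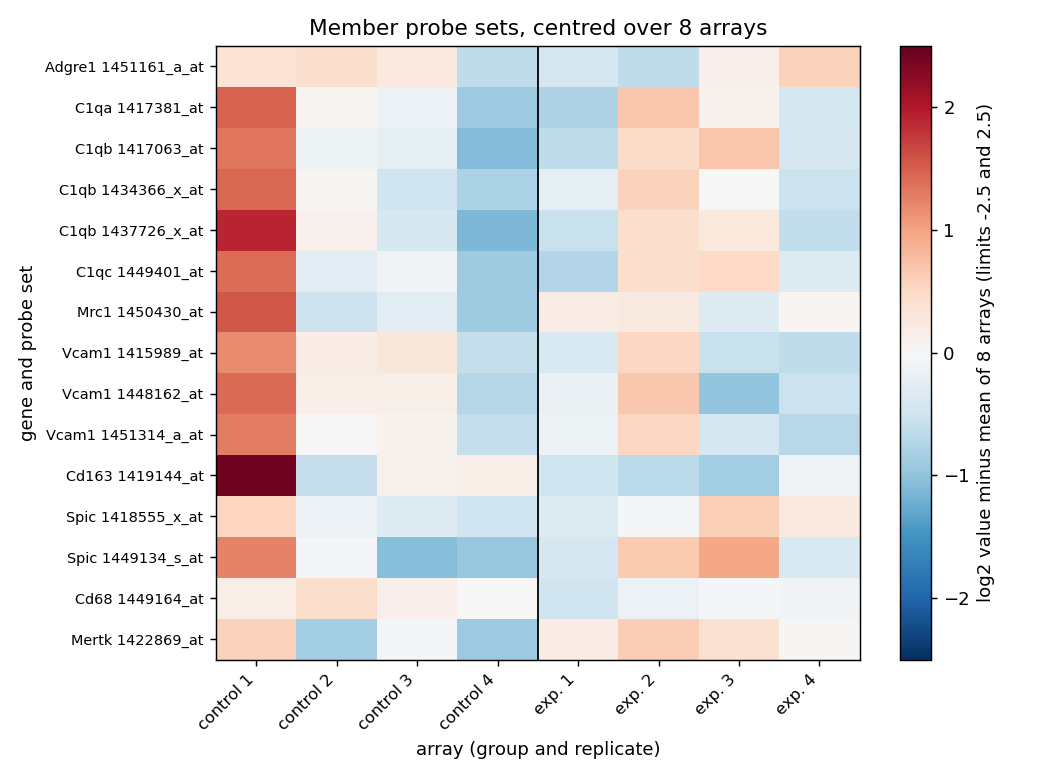
Values of all 15 probe sets (rows) in 8 arrays (columns, 4 control left of the line and 4 experimental right of it), each minus its mean over the 8 arrays on the log2 scale. Red is above and blue below that mean. Control replicate 1 is above it in all 15 probe sets and control replicate 4 is below it in 13.

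Within replicates 1 and 2 the experimental samples had lower values in 14 of the 15 probe sets, and within replicates 3 and 4 they had higher values in 10 of 15. None passed in either subset. Of all probe sets, 2.43% were called in the first comparison and 0.695% in the second. The median over the 10 genes was -0.66 in replicates 1 and 2 and 0.50 in replicates 3 and 4, beside 0.01 and -0.0009 over all genes. Of the 10 genes, 6 (Adgre1, C1qa, C1qb, C1qc, Mrc1 and Spic) lay below 0 in replicates 1 and 2 and above 0 in replicates 3 and 4, beside 17.9% of all genes. Vcam1, Cd163 and Cd68 were below 0 in both and Mertk was above 0 in both. The largest differences relative to their error were Adgre1 (-0.90 ± 0.27, adjusted p = 0.123) and Cd68 (-0.63 ± 0.16, adjusted p = 0.0808) within replicates 1 and 2, and Spic at 1418555_x_at (0.84 ± 0.23, adjusted p = 0.141) within replicates 3 and 4.

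Groups did not overlap within replicates 1 and 2 for Adgre1 and Cd68, both lower, which is 2 of 15 probe sets beside 23.7% of all probe sets, and for 0 of 15 in the other direction (25.6%). Within replicates 3 and 4 they did not overlap for Cd163 and Cd68, lower (2 of 15, beside 24.7%), and for Mertk and both probe sets of Spic, higher (3 of 15, beside 21.7%). An exact permutation test of 2 against 2 samples cannot give a p below 0.333.

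**Figure D3:**
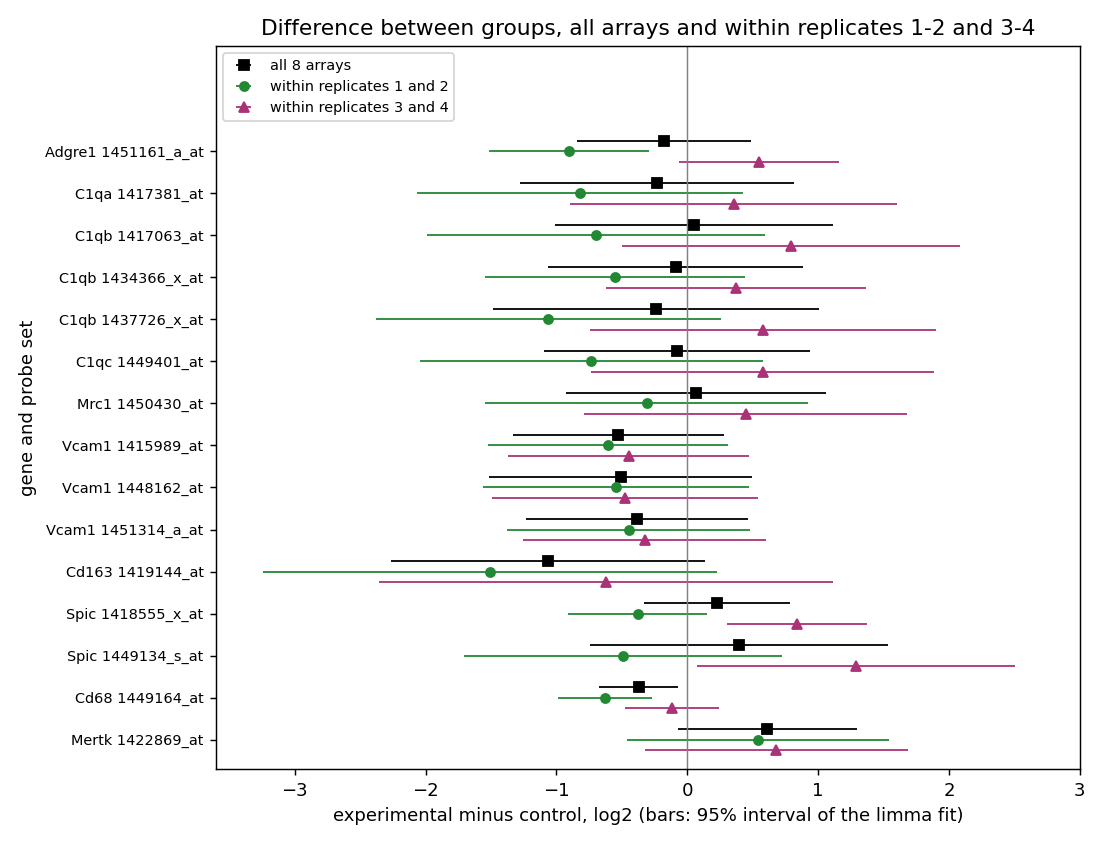
Experimental minus control on the log2 scale for each of the 15 probe sets, over all 8 arrays (black squares), within replicates 1 and 2 (green circles) and within replicates 3 and 4 (purple triangles), with 95% intervals of the limma fit. Circles lie below 0 for all probe sets except Mertk, while triangles lie above 0 for Adgre1, C1q, Mrc1, Spic and Mertk. For Adgre1 and for Spic at 1418555_x_at the intervals of the 2 subsets do not overlap, and for the other probe sets they do.

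The test of the difference between the subsets called none of the 15 probe sets, and 0.0111% of all. It was largest relative to its error for Adgre1 (1.45 ± 0.38, 95% interval 0.59 to 2.31, adjusted p = 0.449) and Spic at 1418555_x_at (1.22 ± 0.33, 0.46 to 1.97, adjusted p = 0.473). An unadjusted p under 0.05 was found in 4 of 15, beside 7.97% of all probe sets. The difference between the subsets lay above 0 in 15 of 15 probe sets, and in 9 of 15 without control replicate 1. By gene it lay above 0 in 10 of 10, beside 49.6% of all genes, with a median of 1.03. Other lists shared this direction, with medians of 1.13 over 10 interferon genes, 0.68 over 12 monocyte genes and 0.40 over 21 further macrophage markers. The medians were -0.15 over 13 neutrophil genes and -0.50 over 10 erythroid genes. Since none of the 15 probe sets passed, the opposite signs of the macrophage genes are not shown to differ beyond the spread. They also rested in part on single arrays. Within replicates 3 and 4, control replicate 4 was the lowest of all arrays in 9 of the 15 probe sets. The 10 genes, each centred on its mean over 8 arrays, averaged -0.64 there and -0.05 in control replicate 3. In experimental replicates 3 and 4 they averaged 0.02 and -0.10. Without control replicate 1, the median over the 15 probe sets within replicates 1 and 2 was 0.03 in place of -0.60, 8 lay above 0 and 7 below, and 3 genes (Adgre1, C1qa and Spic) kept opposite signs, beside 18.2% of all genes. Without control replicate 2, Cd163 alone passed within replicates 1 and 2 (-3.01 ± 0.30, adjusted p = 0.0193), where control replicate 1 is the only control left.

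Replicates 3 and 4 against replicates 1 and 2, averaged over the groups, had 12 of 15 probe sets below 0 and none past the threshold, beside 4.24% of all probe sets (1123 higher and 786 lower, and 835 and 918 after quantile normalization of the deposited values). Vcam1 was lower in replicates 3 and 4 at each of its probe sets, by -1.05 ± 0.32 at 1448162_at (adjusted p = 0.0964), -0.82 ± 0.29 at 1451314_a_at (0.138) and -0.75 ± 0.28 at 1415989_at (0.165). Of 14 genes of stroma and endothelium, 3 were lower in the same comparison, the fat cell gene Adipoq (-1.87 ± 0.13, adjusted p = 0.0048), the chemokine gene Cxcl12 (-1.67 ± 0.21, 0.0146) and the collagen gene Col1a2 (-0.53 ± 0.11, 0.0356), and none higher, beside 0.83% of all genes called lower and 3.77% higher. The median of this list was -0.07, and its part in the Vcam1 values was not tested. Mrc1 differed by -0.72 ± 0.38 in this comparison. Its difference was -1.24 without control replicate 2, where control replicate 1 is the only control left in replicates 1 and 2. Without control replicate 1 it was -0.20.

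Control replicate 1 stood apart in the whole set. It was the highest array in 11 of the 15 probe sets and in 6 of the 10 genes by their brightest probe set, while 8.86% of all genes had their highest value there. Centred on each gene's mean over 8 arrays, the 10 genes averaged 1.12 in control replicate 1, -0.14, -0.05 and -0.64 in the other controls and -0.37, 0.16, 0.02 and -0.10 in experimental replicates 1 to 4. The lowest array was control replicate 4, lowest in 9 of 15 probe sets. The mean of the 10 B cell genes was highest in the same array, at 1.13 (0.21 to 0.58 in the other controls, -0.89 to -0.15 in experimental samples). So was the mean of 21 further macrophage markers (0.46, and -0.23 to 0.09 in the 7 other arrays). Gene by gene, control replicate 1 was the highest array in 5 of these 10 and 7 of these 21. The mean of the T and NK cell genes was lowest there (-0.70). The part of these cells in the macrophage values was not tested.

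**Figure D4:**
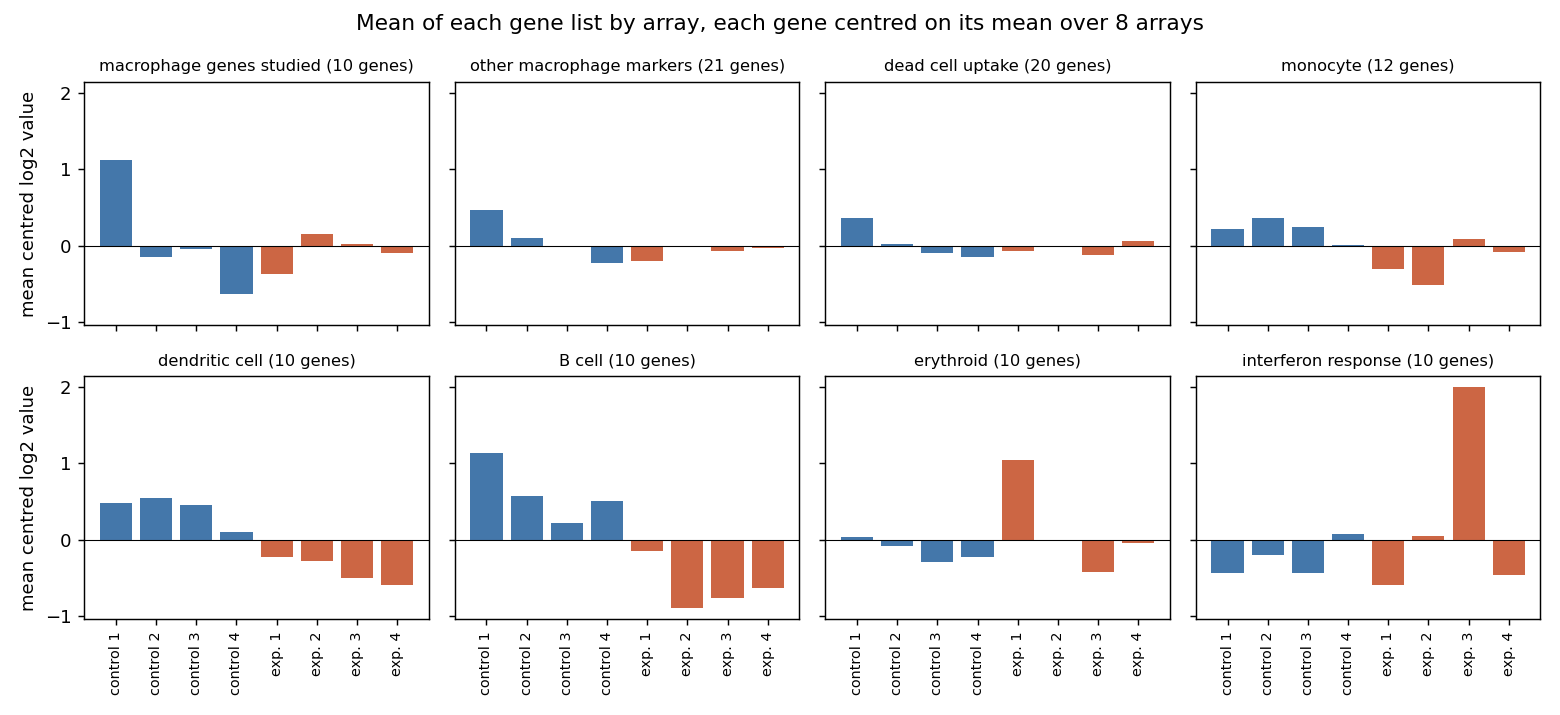
Mean of each gene list in each array (blue control, orange experimental), every gene centred on its mean over 8 arrays on the log2 scale. The 10 macrophage genes stand at 1.12 in control replicate 1, the B cell list at 1.13 in the same array, the erythroid list at 1.04 in experimental replicate 1 and the interferon list at 1.99 in experimental replicate 3.

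Experimental replicate 3 stood at 1.99 in a list of 10 interferon-stimulated genes, while the other arrays lay between -0.59 and 0.08. The macrophage genes averaged 0.02 there. Spic at 1418555_x_at was highest of all arrays in it, and Cd163 and Vcam1 at 1448162_at were lowest. Of the experimental arrays, C1qb at 1417063_at and C1qc were highest in it, and C1qa and the other C1qb probe sets were highest in experimental replicate 2. Without experimental replicate 3, the median difference within replicates 3 and 4 over the 15 probe sets was 0.15 in place of 0.45. Erythroid genes, whose cells surround island macrophages, averaged 1.04 in experimental replicate 1 and -0.42 to 0.04 in the other arrays. That array was not high in the macrophage genes (-0.37). The part of the interferon and erythroid genes in the macrophage values was not tested.

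The genes whose profile over the 8 arrays was most like the mean of C1qa, C1qb and C1qc were taken from 16319 other genes by Pearson correlation, as a ranking with no test. Axl, a receptor tyrosine kinase of the same family as Mertk, came first (r = 0.94, Spearman rho = 0.88, and r = 0.88 without control replicate 1). Rgl3 (0.93), the heme oxygenase gene Hmox1 (0.93), Ddc (0.90), Cd5l (0.90), which encodes a secreted macrophage protein, and Rslcan18 (0.89) followed. Without control replicate 1 the r of these followers was 0.77 to 0.89. Axl also led the ranking against the mean of all 10 genes (r = 0.97), before Spaar (0.96), the macrophage gene Ms4a7 (0.93), Enam (0.93), Rslcan18 (0.91) and Sla (0.91). In the same order, r without control replicate 1 was 0.87, 0.82, 0.74, 0.72, 0.59 and 0.64, so this ranking leaned on that array. Rgl3, Ddc, Spaar and Enam read below the array median of about 5.0 in all 8 arrays, where signal can be largely background. Hmox1 read 9.88, 9.34, 9.09 and 9.05 in the controls and 8.94, 9.68, 9.56 and 8.93 in the experimental samples, with control replicate 1 and experimental replicate 2 highest. Cd5l spread further, from 9.42 in control replicate 1 to 6.15 in control replicate 4 among controls and from 7.61 to 8.49 in experimental samples. None of these genes differed between the groups past the threshold.

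Further macrophage markers had 2 of 21 lower and none higher in the experimental samples, with a median difference of 0.05, beside 1.95% of all genes called lower and 1.53% higher. Apoe, the apolipoprotein made in quantity by macrophages, fell (control mean 10.58 ± 0.39, experimental mean 9.20 ± 0.48, SD, n = 4; -1.39 ± 0.25 SE, adjusted p = 0.0240), as did Pltp, a phospholipid transfer protein (8.67 ± 0.43 and 7.51 ± 0.34, -1.17 ± 0.23, adjusted p = 0.0318). Apoe did not pass without control replicate 1, 2 or 3, and Pltp passed in 2 of 8 such fits, those lacking control replicate 4 and experimental replicate 2 (adjusted p = 0.0277 to 0.0814 and 0.0240 to 0.0951 with any single array left out). Csf1r, the receptor for the macrophage growth factor M-CSF, read 11.67 ± 0.31 and 11.03 ± 0.43 (-0.64 ± 0.22, adjusted p = 0.178). Within replicates 1 and 2, Csf1r (-1.17 ± 0.22, adjusted p = 0.0331) and Pltp (-1.25 ± 0.19, 0.0197) were lower, 2 of 21 beside 1.4% of all genes, and none was higher. Within replicates 3 and 4, Lyve1, a hyaluronan receptor, was lower (-1.94 ± 0.32, adjusted p = 0.0413), 1 of 21 beside 0.363%. Csf1r was at -0.10 ± 0.22 there, with no difference between the subsets past the threshold (adjusted p = 0.473). Siglec1, the sialoadhesin of marrow macrophages, stayed between 5.76 and 6.0 in all 8 arrays.

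Among genes that work with the 10, 1 of 15 for heme and iron handling rose, the heme transporter gene Slc48a1 (8.88 ± 0.13 to 9.47 ± 0.15, SD, n = 4 each; 0.59 ± 0.11 SE, adjusted p = 0.0229), and the list median was 0.03. Of 14 complement genes, C1ra, a protease that C1q activates and whose near copy C1rb its probe set may also read, rose (5.65 ± 0.21 to 6.60 ± 0.34, 0.95 ± 0.17, adjusted p = 0.0237; list median 0.19). Of 20 genes for uptake of dead cells, the adaptor gene Crk fell (-0.46 ± 0.10, adjusted p = 0.0423; list median -0.10), with the opposite sign at 1 of 5 Crk probe sets. Each of these lists had 1 gene called, beside 1.53% of all genes called higher and 1.95% lower. Without 1 array, Slc48a1 passed in 4 of 8 fits, C1ra in 3 and Crk in 1, and the number of complement genes that rose was 0 to 2. None of 13 macrophage transcription factors (median 0.01, Spi1 at -0.03), 11 adhesion partners (0.05, Cd44 at -0.29) or 14 lysosomal genes (0.08, Psap at 0.04) passed over all arrays. Within replicates 1 and 2, Tfec, a transcription factor largely confined to macrophages, rose (1.12 ± 0.13, adjusted p = 0.00794), while Pparg (-1.28 ± 0.17, 0.0112) and Zeb2 (-1.31, 0.0172) fell, which is 1 and 2 of 13 beside 1.51% and 1.4% of all genes. Within replicates 3 and 4, Tfec rose again (1.11 ± 0.13, adjusted p = 0.0156), 1 of 13 beside 0.66% of all genes, and none fell (0.363%). Over all arrays Tfec differed by 1.11 ± 0.28 (adjusted p = 0.0747).

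Genes of other cells in the sort gave these counts in the same comparison: 5 of 10 B cell genes fell (Cd79a by -1.57, Blk by -1.32 and Ms4a1 by -2.82 first), as did 4 of 10 dendritic cell genes (Cd209a by -2.37, Siglech by -1.29 and Ccr7 by -0.93 first), 3 of 7 platelet genes (Pf4, Ppbp and Tubb1), 2 of 12 monocyte genes (Treml4 and Nr4a1), 3 of 11 immediate early genes (Ier2, Nr4a1 and Atf3) and 1 of 13 neutrophil genes (Csf3r). Of 6 eosinophil genes 2 rose (Epx by 0.91 and Siglecf by 1.28), and of 10 interferon genes Ifit2 rose. None of the erythroid, T and NK cell, stroma and endothelium or osteoclast genes passed. Beside these counts, 1.95% of all genes were called lower and 1.53% higher in this comparison. With any single array left out, the number that fell was 3 to 5 for B cells, 2 to 5 for dendritic cells, 2 to 3 for platelets and 1 for neutrophils, but 0 to 2 for monocytes and 0 to 3 for immediate early genes. The number that rose was 1 to 2 for eosinophils and 0 to 1 for interferon genes.

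The C1q genes lie close to E2f2, the gene deleted in the experimental mice. In the gene order of GRCm38.p6 on chromosome 4, 9 measured genes stand between E2f2 and C1qb, 10 before C1qc and 11 before C1qa. In the stretch from E2f2 to C1qa with 12 measured genes beyond each end, 4 of 37 genes passed and all were lower, beside 1.95% of all genes called lower and 1.53% higher: Id3 (-0.92, adjusted p = 0.0116), Zfp46 (-0.60, 0.0105), Tcea3 (-1.0, 0.0438) and Pnrc2 (-0.82, 0.0362). The C1q genes in this stretch differed by -0.23 to 0.05, as given above. Mertk and Mrc1 share chromosome 2 with E2f1, with 230 and 1034 measured genes between, and E2f1 is null in both groups.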

How the data were processed

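Biotin-labelled cRNA from 2.5 µg of total RNA per sample had been hybridised to Affymetrix mouse arrays, 4 control and 4 experimental. The deposited table holds log2 values per probe set, which the submitters' processing notes trace to RMA (background correction, quantile normalization and probe summary), without a version. Of 45101 probe sets, 64 Affymetrix controls were left out. Platform annotation gave 34945 probe sets 1 gene symbol, 932 several and 9160 none, and each gene is given by its brightest probe set on average over the 8 arrays. Of 18193 genes, 18032 matched RefSeq GRCm38.p6, which was used for gene order and promoters. Group differences (log2, control subtracted from experimental) were estimated by lmFit and eBayes of limma 3.58.1 under R 4.3.3, with group as the only term. The comparisons within replicates 1 and 2, within 3 and 4, and between these subsets were contrasts of a fit with 4 means (group by code style). P-values were adjusted by Benjamini-Hochberg over all tested probe sets, with a threshold of 0.05. Errors of differences are moderated standard errors, and those of levels are SDs.

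Control and experimental arrays of 1 replicate number (given in the sample titles) had correlated deviations, 0.20 to 0.26 in the 4 pairs. Pairs with unequal numbers but one code style reached 0.14 to 0.26, so pairing by number was not shown beyond the code style. The main fit did not pair samples, and the replicate block, which pairs them by number, is given as an alternative. The fits were tested on simulated data with known changes. For experimental against control they recovered 81% of 2-fold and 96% of 4-fold changes. For the difference between the subsets they recovered 7% and 63%. The changes were put in random probe sets above the median level, with no difference between code styles. These shares need not hold for the widely spread macrophage genes. Depth has no counterpart here, and the number of arrays limits the precision. The genes and lists were chosen with earlier results of these data known. Named genes are all probe sets of the 10 genes, from each list up to 3 genes past the threshold with the smallest p (the 2 brightest where none passed), the 6 genes most like each profile, and neighbours of E2f2. Others (Csf1r, Cxcl12, Siglec1, Tfec, Pparg, Zeb2, Lyve1, Adipoq, Col1a2) were named after their values were seen. Alternatives were array scaling, a filter on dim probe sets, trended or robust variance, array weights, blocks and leaving out arrays.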

Additional observations from a re-analysis of the deposited data

Results flagged for a closer look

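Adgre1 in control replicate 4 read 7.54, far from the other controls (8.43 to 8.59): the gap to the nearest was 0.846 of the range of the 4 controls, above the 95% critical value of Dixon's test for 4 samples. This was the only such array among 30 groups of 4 tested over the 15 probe sets, where chance flags about 1 in 20.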

How the results depend on the processing

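For experimental against control, none of the 15 macrophage probe sets passed under any alternative (adjusted p = 0.0834 to 0.999), the replicate block included (0.143 to 0.965), and this held without control replicate 1 and without experimental replicate 3. The same was true within replicates 3 and 4 (adjusted p from 0.0766) and for the difference between the subsets (from 0.288). Within replicates 1 and 2 the number called was 0 to 1 without 1 array, and for replicates 3 and 4 against 1 and 2 it was 0 to 1. Signs of values not past the threshold changed in 26 of 268 values for experimental against control. The number of all probe sets called in that comparison was 1162, and 2277 with the replicate block, 2582 with code style as a block, 663 with inferred sex as a block, 395 to 1744 without 1 array, and 248 without both control replicate 1 and experimental replicate 3, an alternative chosen after seeing the data. The replicate block changed no call of the macrophage genes. Within replicates 1 and 2, 1095 became 130 in a fit of those 4 samples alone and 220 to 1163 without 1 array, and within replicates 3 and 4, 313 became 4 to 686. The difference between the subsets had 5, and 3 among probe sets above the median level, 3 with array weights, 1 with inferred sex as a further term, 0 without both arrays and 0 to 22 without 1. Replicates 3 and 4 against 1 and 2 had 1909, 27 without both arrays and 28 to 2483 without 1. The cause of these shifts was not tested, and fits with fewer arrays have fewer degrees of freedom. A subset left with 1 array in a group was assumed to vary like the others. Values near the array medians, as for Cd163, Mertk and Spic, limit what can be measured.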
